A study of Mus musculus with 8 samples.

Results

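Transcripts of B cells and of immunoglobulins were followed in cultures of thioglycollate-elicited peritoneal macrophages, which are cells drawn into the peritoneal cavity of mice by an irritant broth. The 4 control samples were mock treated and the 4 Ac-LDL samples were incubated with acetylated LDL at 120 μg/ml for 24 h. All samples came from C57/BL6 mice of 8 weeks, and each group was numbered as biological replicates 1 to 4. Replicates 1 and 2 of both groups lay on one slide and replicates 3 and 4 on a second slide. Acetylated LDL is a chemically modified lipoprotein that macrophages take up through scavenger receptors. According to the study's methods, the elicited cells were plated and non-adherent cells were washed away before treatment, so the cultures were enriched for macrophages by adherence and were not sorted. The labels do not say whether arrays of one number came from the same mouse or pool. Probes were taken for 7 gene symbols, *Igk-C*, *Igh-6*, *Ms4a1*, *Cd22*, *Cd79a*, *Cd79b* and *Pax5*. 10 of the 45281 probes of the Illumina bead array carried 6 of these symbols, and *Cd79a* was not analysed here. The genes were chosen by name, but at a time when their levels on these same arrays and their differences between Ac-LDL and control were already known. Levels and their pattern over the arrays are therefore given as a description, and the group comparison adds no independent evidence.

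B cells carry an antibody on their surface as the antigen receptor. Each antibody joins heavy chains, here of the mu class of IgM encoded by *Igh-6* (current symbol *Ighm*, chromosome 12), to light chains of the kappa class, whose constant region is encoded by *Igk-C* (current symbol *Igkc*, chromosome 6), or of the lambda class. CD79A and CD79B pass on the signal of the bound receptor, CD22 is a sialic acid-binding coreceptor that dampens it, and CD20, the product of *Ms4a1*, is a membrane protein of mature B cells. PAX5 is the transcription factor that commits and holds cells to the B lineage. The peritoneal cavity of mice is a known home of B cells, including the self-renewing B-1 cells, beside macrophages. Antibody-secreting plasma cells hold very large amounts of immunoglobulin RNA and lose *Pax5*, *Ms4a1* and *Cd22*.

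The probe sequences are shown because they tell which of the immunoglobulin probes overlap. Each is 50 bases long and is written 5′ to 3′ as in the deposited annotation. Capitals in the first pair mark the 33 bases that the *Igk-C* probe shares with a probe of LOC100047628, a predicted transcript annotated as similar to a protein named Chain L.
Igk-C ILMN_2684370: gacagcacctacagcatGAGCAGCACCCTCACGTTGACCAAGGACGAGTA
LOC100047628 ILMN_2704562: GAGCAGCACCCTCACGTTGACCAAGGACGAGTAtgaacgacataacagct
In the second pair they mark the 47 bases common to the *Igh-6* probes, which are shifted against each other by 3 bases.
Igh-6 ILMN_2744657: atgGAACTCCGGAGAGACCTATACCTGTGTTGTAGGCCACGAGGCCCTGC
Igh-6 ILMN_2744660: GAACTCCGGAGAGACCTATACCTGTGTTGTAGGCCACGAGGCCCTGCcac
The probes of a pair can bind the same transcript, so the agreement within a pair is not a second observation. A kappa variable region probe and a lambda constant region probe shared no run of 20 or more bases with any member probe and are shown without capitals. A kappa variable region and the kappa constant region can lie on the same rearranged transcript, so probes without common bases need not be independent either.
LOC635815 ILMN_2606313: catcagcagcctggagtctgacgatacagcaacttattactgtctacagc
IGLC2 ILMN_2450155: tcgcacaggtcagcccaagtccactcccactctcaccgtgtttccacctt

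The kappa and mu constant region transcripts were detected in all cultures, whereas most transcripts that define a B cell were at or below the detection limit. A probe counted as detected where its detection p-value, its rank against the negative control probes of the array, was at most 0.05. The probes of *Igk-C* and *Igh-6* and 2 of the 3 probes of *Cd22* were detected on all 8 arrays, which makes 5 of the 10 member probes. *Ms4a1* was detected on 5 arrays, control replicates 2, 3 and 4 and Ac-LDL replicates 1 and 2. The third *Cd22* probe, both *Cd79b* probes and the *Pax5* probe were detected on none. Between 5 and 6 of the 10 probes were detected on each array, and between 36.8% and 38.5% of all probes. In RNA from a whole culture, fewer cells of a type and less RNA per cell cannot be told apart, and the intensities of different probes cannot be ranked against each other.

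**Figure D1:**
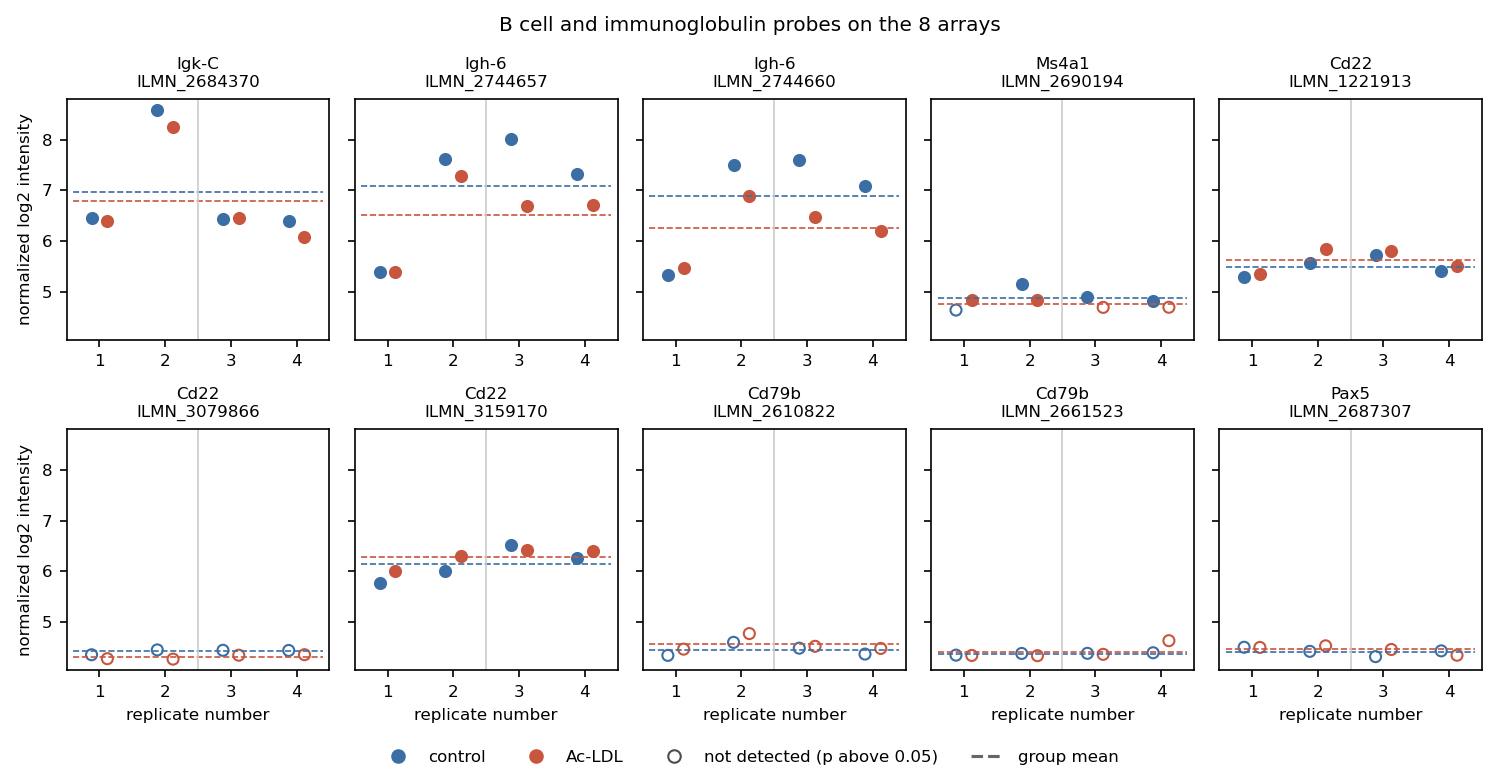
Normalized log2 intensity (vertical axis) of the 10 member probes by replicate number (horizontal axis), with control arrays in blue, Ac-LDL arrays in red, group means as dashed lines, open circles where the probe was not detected and a grey line between the slides. *Igk-C* stands near 8.59 and 8.26 on the replicate 2 arrays and at 6.45 or below on the other arrays, and *Igh-6* is lowest on both replicate 1 arrays.

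The kappa light chain separated 1 pair of arrays from the other 3. The normalized log2 intensity of *Igk-C* (ILMN_2684370) was 6.45, 8.59, 6.44 and 6.39 in control replicates 1 to 4. In Ac-LDL replicates 1 to 4 it was 6.40, 8.26, 6.45 and 6.09. Both replicate 2 arrays were high, the other 6 arrays lay close together, and the groups overlapped. Before any normalization, the deposited intensity was 368 in control replicate 2 against 118 to 122 in the other controls, and 313 in Ac-LDL replicate 2 against 90.0 to 117 in the other Ac-LDL samples. The standard error over the 50 to 61 beads of the probe was at most 5.48% of the intensity on any array. The means of the 4 pairs ranged over 2.19 on the log2 scale, which placed *Igk-C* at percentile 99.9 of the 17122 tested probes for this range. Within pairs, the Ac-LDL array differed from its control by only -0.34 to 0.01.

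The heavy chain of IgM showed another pattern. The log2 intensity of *Igh-6* at ILMN_2744657 was 5.39, 7.63, 8.01 and 7.32 in control replicates 1 to 4 and 5.39, 7.29, 6.70 and 6.70 in Ac-LDL replicates 1 to 4. At the overlapping ILMN_2744660 it was 5.33, 7.50, 7.61 and 7.10 in control and 5.46, 6.90, 6.47 and 6.20 in Ac-LDL samples. Both replicate 1 arrays were low at both probes and replicates 2, 3 and 4 were higher, so that the arrays that were high for kappa were among the high arrays for mu, while replicates 3 and 4 were high for mu alone. The pair means ranged over 2.07 and 1.80 on the log2 scale, at percentiles 99.9 and 99.7 of the tested probes. Over the 8 arrays the probes of *Igh-6* correlated with each other at r = 0.99, as overlapping probes may, and with *Igk-C* at r = 0.41 and r = 0.47, with samples that share slides and pairs. At deposited intensities, ILMN_2744657 read 70.0 and 61.4 on the control and Ac-LDL arrays of replicate 1, where it was still detected, and up to 300.3 in control replicate 3.

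*Cd22* and *Ms4a1* had smaller ranges between pairs of arrays than the immunoglobulin chains. *Ms4a1* lay at the detection limit and *Cd22* at ILMN_1221913 not far above it, where a small range cannot be read as low variation of the transcript. *Cd22* at ILMN_3159170 was 5.78, 6.01, 6.53 and 6.26 in control replicates 1 to 4 and 6.002, 6.30, 6.42 and 6.41 in Ac-LDL replicates 1 to 4. The probe lies on the minus strand of chromosome 7 at chr7:31650986-31651035 by the deposited annotation, which names no genome build. Its 3 lowest arrays were on the first slide, with differences of slide 1 from slide 2 of -0.50 in control and -0.27 in Ac-LDL samples. *Cd22* at ILMN_1221913, whose bases are annotated to chr7:31651547-31651596, was 5.29, 5.56, 5.71 and 5.40 in control and 5.36, 5.85, 5.81 and 5.50 in Ac-LDL samples. These probes correlated with each other at r = 0.70 over the 8 arrays and ranged over 0.59 and 0.44 between pair means, at percentiles 86.0 and 71.7. The third probe, ILMN_3079866 at chr7:31665170-31665219 towards the start of the transcript, stayed between 4.26 and 4.45. *Ms4a1* was 4.63, 5.14, 4.90 and 4.81 in control and 4.83, 4.82, 4.69 and 4.69 in Ac-LDL samples, with a range of pair means of 0.25 at percentile 34.6. Its highest array was control replicate 2, while Ac-LDL replicate 2, at 4.82, was near the other Ac-LDL arrays. Over the 8 arrays *Ms4a1* correlated with *Igk-C* at r = 0.71 and with the *Igh-6* probes at r = 0.57 and r = 0.67. *Cd22* correlated with *Igh-6* at r = 0.56 to r = 0.65. With *Igk-C* it correlated at r = 0.40 (ILMN_1221913) and r = -0.20 (ILMN_3159170), and with *Ms4a1* at r = 0.16 and r = -0.06. These transcripts thus did not all vary together, again as a description over arrays that share slides and pairs.

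The signalling partner and the lineage factor gave no detectable signal. *Cd79b* lay between 4.34 and 4.77 at ILMN_2610822 (chr11:106172864-106172913) and between 4.33 and 4.63 at ILMN_2661523 (chr11:106174035-106174084). *Pax5* lay between 4.31 and 4.53. The lowest detection p-value of these 3 probes was 0.0630, for *Cd79b* in Ac-LDL replicate 2. A probe that is not detected does not show that the transcript is absent. On the same arrays the single probe of *Msr1*, which encodes a scavenger receptor of macrophages, was also detected on none.

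Other immunoglobulin probes were mostly silent, and some of those detected were highest on the replicate 2 arrays. The array held 98 further probes with symbols of the heavy chain locus (66 probes), the kappa locus (27) and the lambda locus (5). Of these, 86 were detected on no array, 12 on at least 1 and 2 on all 8, namely *Igh-4*, the heavy chain of an IgG class, and IGLC2, a lambda constant region. Further constant region probes, IGHA, IGHG1 and both of *Ighg*, were detected on no array. The IgG heavy chain probes among these 98 thus did not agree in detection. The number detected per array was 6, 12, 8 and 8 in control replicates 1 to 4 and 5, 9, 5 and 6 in Ac-LDL replicates 1 to 4. It was highest on the replicate 2 array of each group. IGLC2 was 5.41, 6.23, 5.46 and 5.31 in control and 5.30, 5.97, 5.26 and 5.46 in Ac-LDL samples. *Igh-4* was 5.06, 4.95, 4.85 and 4.81 in control and 4.87, 5.17, 5.18 and 4.99 in Ac-LDL samples. The replicate 2 arrays thus stood above the others for IGLC2 and did not for *Igh-4*. The *Igh-4* probe, at 4.81 to 5.18, lay near the detection limit, so the missing rise cannot be read as a difference between chains. The heavy chain variable probe IGHV9S5 was also highest on the replicate 2 arrays, at 5.44 in control and 5.30 in Ac-LDL. Of the 8 further immunoglobulin probes that could be tested, 4 were higher on both replicate 2 arrays than on all others, a pattern held by 5.11% of all tested probes.

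Further light chain probes with this pattern were found after their values were seen. *Igl-V1*, a lambda variable region, was 4.79, 5.996, 4.75 and 4.53 in control and 5.10, 6.41, 4.68 and 4.53 in Ac-LDL samples at ILMN_1245146. Its other probe, ILMN_1230696, was detected on no array. LOC100047628 at ILMN_2704562, which overlaps the *Igk-C* probe, was 6.05, 8.28, 6.07 and 5.60 in control and 5.92, 7.97, 5.92 and 5.54 in Ac-LDL samples. A further probe of this symbol, ILMN_2450019, was detected on no array. LOC635815, annotated as a kappa variable region and without shared sequence, was 4.94, 6.50, 4.82 and 4.81 in control and 4.90, 5.88, 4.84 and 4.66 in Ac-LDL samples. The detected probes of *Igl-V1*, LOC100047628 and LOC635815 were high on the replicate 2 arrays alone. By smaller gaps of 0.51, 0.66 and 0.28, so were IGLC2, a kappa variable region probe (ILMN_1232948) and *Igk-V5* at ILMN_1228607. Some other light chain probes were not. Of 86 further probes picked by words for immunoglobulins or their chains in the description, 13 were detected on at least 1 array and 6 could be tested, and 2 of these 6, LOC100047628 and LOC635815, were highest on both replicate 2 arrays. The tested kappa probes LOC100047162, LOC635860, *Igk-V38* and *Igk-V5* at ILMN_2631259 were not, with the lower replicate 2 array below the highest other array by a log2 difference of -0.32, -0.20, -0.23 and -0.07. Ranked by the gap between the lower replicate 2 array and the highest other array, LOC100047628 was at rank 1 (1.90 on the log2 scale) and *Igk-C* at rank 2 (1.81) of the 17122 tested probes. *Mmp9*, a matrix metallopeptidase, was at rank 3 (1.00), LOC635815 at rank 4 (0.94) and *Igl-V1* at rank 5 (0.90). Ranks 6 and 9 (0.55 and 0.49) were probes of *Lum*, a collagen-binding proteoglycan of stromal cells, rank 7 was *Zbtb8* (0.55) and IGLC2 was at rank 8 (0.51). The part of stromal cells in the pattern was not tested. The joining chain *Igj*, which links the subunits of secreted IgM, was detected on no array.

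**Figure D2:**
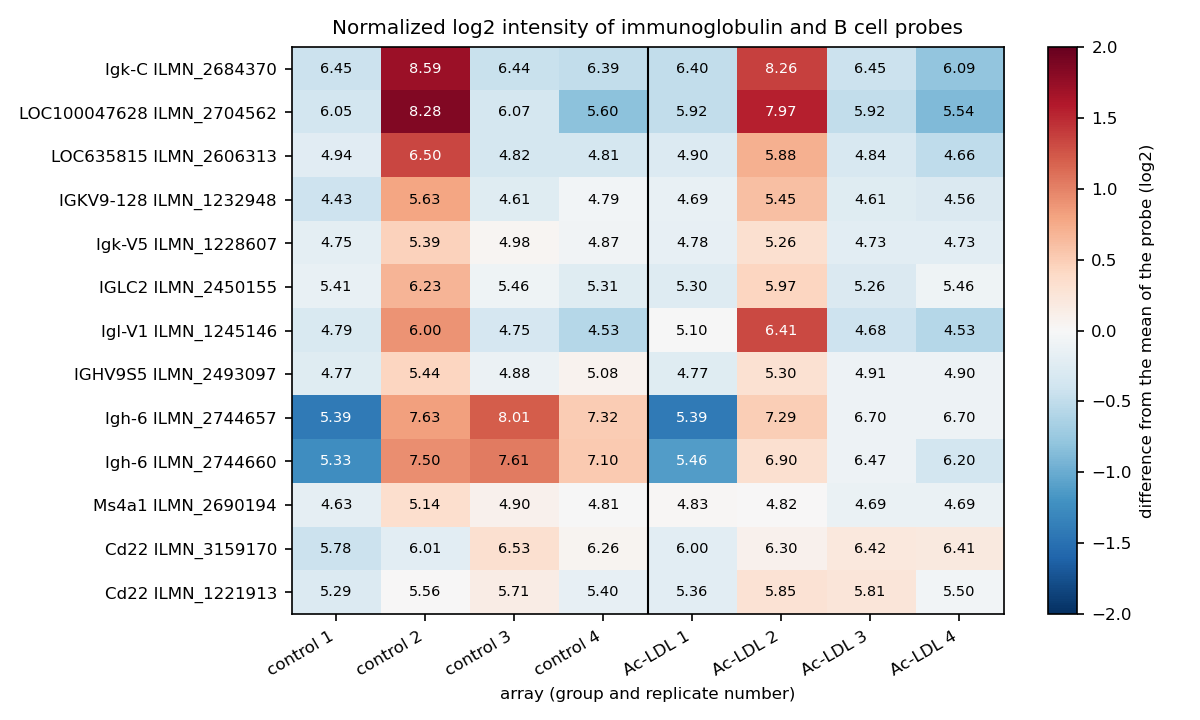
Normalized log2 intensity (number in each cell) of 13 immunoglobulin and B cell probes on the 8 arrays, coloured by the difference from the mean of that probe over the arrays. Apart from the member *Igk-C*, the light chain probes and the heavy chain variable probe IGHV9S5 were picked for high values on the replicate 2 arrays. They are red in those columns of both groups by this choice. The tested kappa probes LOC100047162, LOC635860, *Igk-V38* and *Igk-V5* at ILMN_2631259 lack the pattern and are not drawn, nor is *Igh-4*. *Igh-6* is blue in the replicate 1 columns, and *Cd22* and *Ms4a1* vary less.

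Lists of marker genes place these readings beside other cell types, with 1 probe per symbol. Of 17 further symbols of the B cell surface, 7 were detected on all 8 arrays and 7 on none. Examples of those detected, named by mean intensity as in the other lists, were *Cd81*, *Cd180* and *Cd72*, which macrophages also express. *Cr2*, *Fcer2a* and *Tnfrsf13c*, the complement, low-affinity IgE and BAFF receptors of mature B cells, were detected on none. Of 10 transcription factors 4 were detected on all arrays (such as *Tcf3*, *Bach2* and *Foxo1*) and 4 on none, among them *Ebf1* and *Pou2af1*. Of 20 symbols of B cell receptor signalling 14 were detected on all arrays, such as *Plcg2*, *Vav1* and *Pik3ap1*, which myeloid cells share, and the B lineage kinase *Blk* and the adaptor *Bank1* on none. Of 8 plasma cell symbols *Xbp1* and *Sdc1* were detected on all arrays, and 5 were detected on none, including *Prdm1* and *Tnfrsf17*. 1 of 4 B-1 cell symbols, *Spn*, was detected on all arrays and none of the 6 immature B cell symbols was.

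Among other cell types, 10 of 12 macrophage symbols were detected on all arrays, among them *Lyz*, *Lyz2* and *Cd68*. Symbols were not merged by gene. The lysozyme symbols *Lyz*, *Lyz2* and *Lyzs* were each counted, as were *Prkcb* and *Prkcb1* in the signalling list, so these counts can exceed the number of genes. The T cell list had 1 of 16 symbols detected on all arrays (*Lat*) and 10 on none, among them *Cd3d*, *Cd3g* and *Cd8a*. For NK cells 1 of 8 was detected throughout (*Prf1*), for neutrophils 1 of 8 (*S100a8*), for dendritic cells 1 of 7 (*Itgax*), and for eosinophils and mast cells 0 of 5 and 0 of 6. Stromal and mesothelial transcripts were present, with 5 of 7 detected on all arrays, such as *Dcn*, *Upk3b* and *Col1a1*. The mean of the 12 macrophage probes ran from 9.30 to 9.93 in control and from 9.49 to 9.99 in Ac-LDL samples. It was lowest on the replicate 1 array in each group, as were *Igh-6* and the *Cd22* probes detected on all arrays. The mean of the 17 B cell surface probes ran from 6.04 to 6.33 and from 6.15 to 6.40 and was lowest on the same arrays. So was the mean of the B cell receptor signalling probes. Of all tested probes, 4.43% had both replicate 1 arrays below all others, a stricter pattern than being lowest within each group. The *Igh-6* probes and the *Cd22* probes detected on all arrays met it. The macrophage mean did not, as Ac-LDL replicate 1 (9.49) lay above control replicate 2 (9.46). The share of probes with the looser pattern was not counted. The part of other cells in the pattern of *Igk-C* and *Igh-6* was not tested.

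**Figure D3:**
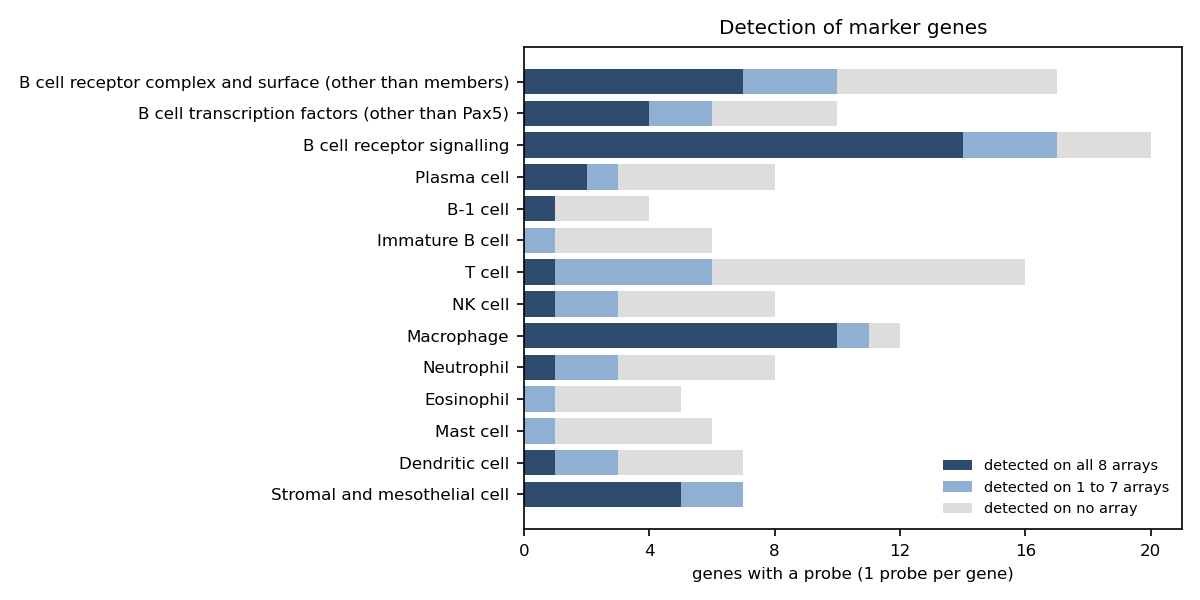
Number of symbols with a probe in each marker list (horizontal axis), split by whether the probe was detected on all 8 arrays, on 1 to 7 arrays or on none. Macrophage, stromal and B cell receptor signalling symbols are mostly detected on all arrays, while T cell, NK cell, granulocyte, mast cell, plasma cell and immature B cell symbols mostly are not.

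Whether loading with Ac-LDL altered these transcripts was asked by comparing the 4 Ac-LDL arrays with the 4 control arrays. No member probe was called after adjustment. 6 of the 10 probes passed the filter of detection on at least 4 arrays, and 0 of these 6 were called at a limma adjusted p under 0.05, where 0.0409% of all tested probes were called. None of the 6 had groups that did not overlap, against 3.8% of all tested probes. Of the 6 differences 4 were negative and 2 positive, with a median of -0.14 on the log2 scale beside a median near 0.00 for all tested probes. Single arrays moved the member median, to 0.04 without control replicate 2, -0.01 without Ac-LDL replicate 4 and -0.40 without Ac-LDL replicate 2.

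The largest differences belonged to the mu heavy chain. *Igh-6* at ILMN_2744657 had a mean log2 intensity of 7.09 ± 1.17 (SD, n = 4) in control and 6.52 ± 0.80 in Ac-LDL samples, a difference of -0.56 with an SE of 0.55 (limma adjusted p = 0.984). At ILMN_2744660 the means were 6.89 ± 1.06 and 6.26 ± 0.60 and the difference -0.63 with an SE of 0.48 (limma adjusted p = 0.968). The Ac-LDL array was lower in 3 of 4 pairs at both probes, with log2 differences of -0.34, -1.31 and -0.62 in pairs 2, 3 and 4 at the first. In pair 1, where both arrays were near the detection limit, the differences were 0.00 and 0.12. Within the slides the differences were -0.17 and -0.96 at ILMN_2744657 and -0.24 and -1.02 at ILMN_2744660. Single arrays moved the difference by over 1.5 times. At ILMN_2744657 it was -1.13 without control replicate 1, -0.26 without control replicate 3 and -0.19 without Ac-LDL replicate 1, and at ILMN_2744660 it was -1.15, -0.39 and -0.36. Once pairs of arrays were fitted as a block (replicate block), the SE was 0.18 at both probes and the unadjusted limma p was 0.0127 and 0.00671. An unadjusted p under 0.05 in this direction was found in that fit for 6.54% of all tested probes. After adjustment neither was called (0.240 and 0.195), nor was any other member, where the replicate block called 0.444% of all tested probes.

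*Igk-C* averaged 6.97 ± 1.08 (SD, n = 4) in control and 6.80 ± 0.99 in Ac-LDL samples, a log2 difference of -0.17 with an SE of 0.57 (limma adjusted p = 0.994). In both groups the replicate 2 array stood far from the other 3. Leaving out control replicate 2 turned the difference to 0.37, and leaving out Ac-LDL replicate 4 turned it to 0.07. With the replicate block its SE was 0.0916 and its limma adjusted p 0.457. It was lower in 3 of 4 pairs, and within the slides the differences were -0.19 and -0.15.

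The coreceptor went the other way by less. *Cd22* differed by 0.14 with an SE of 0.14 at ILMN_1221913 (limma adjusted p = 0.986) and by 0.14 with an SE of 0.17 at ILMN_3159170 (limma adjusted p = 0.987). The first was higher in Ac-LDL in all 4 pairs, as were 11.5% of the tested probes, and the second in 3 of 4. *Ms4a1* differed by -0.11 with an SE of 0.12 (limma adjusted p = 0.986) and was lower in 3 of 4 pairs. Leaving out single arrays gave *Ms4a1* differences from -0.19 (without control replicate 1) to -0.02 (without control replicate 2). For *Cd22* they ran from 0.07 (without Ac-LDL replicate 2) to 0.23 (without Ac-LDL replicate 1) at ILMN_1221913 and from 0.01 (without control replicate 1) to 0.27 (without control replicate 3) at ILMN_3159170.

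**Figure D4:**
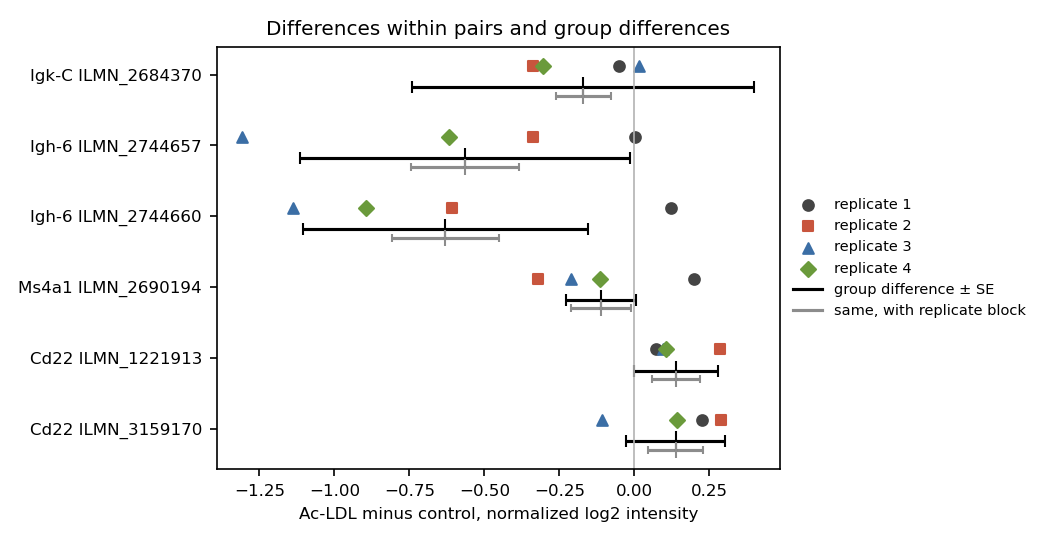
Ac-LDL minus control in normalized log2 intensity (horizontal axis) for the 6 tested member probes, with 1 symbol for each pair of arrays of the same number, the group difference with its SE in black and the same with the replicate block in grey. The *Igh-6* pairs spread from -1.31 to 0.12, with pair 1 near 0, and the *Cd22* differences lie between -0.11 and 0.29.

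None of the marker lists held a called probe in this comparison. The 7 tested B cell surface probes had a median log2 difference of 0.15 with 6 of 7 positive, the 5 transcription factor probes -0.03 and the 15 signalling probes 0.04. The macrophage probes had a median of 0.04 over 10. None of the 8 further immunoglobulin probes that were tested was called, with or without the replicate block. With the replicate block 1 listed symbol was called, *Mertk*, a macrophage receptor for dying cells, at a log2 difference of 0.56 and a limma adjusted p of 0.0364.

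The probes of other symbols most like each member over the 8 arrays are given as a description, since they share arrays, slides and pairs. For *Igk-C* they were LOC100047628 (r = 0.99), LOC635815 (r = 0.98), *Blcap* and *Rnf25* (both r = 0.97) and B930011P16Rik (r = 0.96). Without the replicate 2 arrays r became 0.75, 0.85, -0.19, 0.77 and 0.53, so that the likeness of *Blcap* rested on that pair. For *Igh-6* at ILMN_2744657 they were 2310047C04Rik (r = 0.98), *Orai1* and *Aldh1l1* (both r = 0.96), LOC100048594 (r = 0.95) and *Brf1* (r = 0.94). The other *Igh-6* probe, left out here as one of the same symbol, was closer than any of these. Without the replicate 1 arrays these ranged from 0.82 to 0.92. For *Cd22* at ILMN_3159170 they were *Xylt2*, *Yipf6*, *Pon2*, 2900016J09Rik and *Abca3*, all with r = 0.97.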

How the data were processed

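RNA of the 8 cultures was hybridised to Illumina mouse bead arrays, 1 array per sample, and BeadStudio is named in the submitters' processing notes without a version. The authors deposited the intensity as the mean over the beads of a probe on a linear scale, neither background-corrected nor normalized. The deposited detection p-value gives the share of negative control probes on the same array that were at least as bright, in steps that imply 936 such controls. The deposited bead standard error and bead number are other measures and served only as a check of precision. The median number of beads per probe was 43 to 44 and the median intensity 42.5 to 46.4 per array. The group comparison rested on 4 arrays per group, and its SE also held the differences between pairs where no replicate block was fitted.

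Intensities were background-corrected with the normexp model (neqc, offset 16, negative controls inferred from the detection p-values), quantile normalized and taken to log2 in R 4.3.3 with limma 3.58.1. A probe was tested if 4 or more of the 8 arrays detected it (p-value up to 0.05), which left 17122. The groups were compared with lmFit and eBayes without a block, since the study's own test was unpaired, with Benjamini-Hochberg adjustment over all tested probes. Arrays of the same number deviated together from their group means (r across probes of 0.579, 0.479, 0.468 and 0.629 for replicates 1 to 4). Such arrays also shared a slide, and no r was computed between arrays of unlike number on a slide. These r thus cannot tell pairing from a shared slide. The numbers were taken as pairs and entered as a replicate block in a further fit. Other alternatives changed the background correction, scaling, filter, variance prior, slide block, test and samples.

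Genes were named by a rule. It covered every member probe, further probes with symbols starting in Igh, Igk or Igl by count and by name if detected on all 8 arrays, up to 3 of the brightest symbols per list (1 probe per symbol, the brightest tested one) and any called, and the 5 probes most like each member detected on all arrays. Genes outside it were chosen after their values were seen. Members and lists were chosen with earlier results of these data known. Symbols are those of the deposited annotation, and all 7 were matched to a RefSeq gene table for current symbols and chromosomes. No promoter was printed, as the data do not bear on one.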

Additional observations from a re-analysis of the deposited data

Results flagged for a closer look

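*Igk-C* at control replicate 2 (8.59 on the log2 scale, the other controls 6.39 to 6.45) and at Ac-LDL replicate 2 (8.26, the others 6.09 to 6.45) lay apart from the other 3 arrays of its group, with a gap wide enough to meet Dixon's criterion. As these levels were already known, this describes the gap and adds no evidence. 12 groups of 4 values, 6 probes in 2 groups, were examined, and chance alone would give such a gap in about 5% of groups. Both arrays carry the same replicate number, so they are not 2 independent cases.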

How the results depend on the processing

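No member probe was called under any of 24 alternatives, 4 of them added after seeing the data (both arrays of a number left out). The median of the member differences ran from -0.40 to 0.04. *Igh-6* stayed negative (-1.13 to -0.17 at ILMN_2744657, -1.15 to -0.24 at ILMN_2744660, lowest adjusted p 0.195), *Ms4a1* negative in the 23 alternatives that tested it and both *Cd22* probes positive. The *Igk-C* difference ran from -0.66 to 0.37 as arrays were left out, and it turned positive without control replicate 2 (0.37, limma adjusted p 0.999) and without Ac-LDL replicate 4 (0.07, limma adjusted p 0.997). Ac-LDL replicate 4 was the lowest array of its group and control replicate 2 the highest of its own. The count over all probes, 7, became 14 without background correction, 23 with median scaling, 0 without a filter, 55 with the slide block, 76 with the replicate block, 16 with an intensity trend and robust prior, 0 by the methods' t-test after adjustment (1039 at an unadjusted p under 0.05, none of them a member), and 14 and 16 on slide 1 and slide 2 alone. It ran from 0 to 15 when replicates were left out, with 15 without control replicate 2. The replicate block changed no call of a member. At a detection p of 0, 2 member probes were left on each replicate 1 array. With median scaling the median difference of all tested probes was -0.069, against 0.001 in the main fit.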
